A study of Mus musculus with 4 samples.

Results

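The cytosolic ribosomal protein genes encode the proteins that, with ribosomal RNA, build the large and small subunits of the ribosome. They were taken by symbol, as every feature named Rpl or Rps with a number and at most 1 further letter, Rplp with a digit, or Rpsa, with pseudogene symbols left out. This gave 81 of the 21883 features in each of the study's tables, 49 of the large subunit and 32 of the small subunit. Expression was measured by RNA sequencing in wild-type young adult male mice of the strain labelled BL6/C57. In all groups the mice had undergone transection of the sciatic and femoral nerves of the left leg 7 days before. The groups were ipsilateral L4 to L6 dorsal root ganglia (DRG, where the somata of sensory neurons lie), contralateral DRG, ipsilateral lumbar dorsal spinal cord and contralateral dorsal cord. Each group is 1 library, so no difference below has a replicate check, and the labels do not say if animals were pooled. The contralateral tissue was taken from operated, not uninjured, mice.

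Ribosomal proteins are made in matching amounts, and their mRNAs are among the most abundant in most cells. These mRNAs typically begin with a cytosine followed by a run of pyrimidines, the terminal oligopyrimidine (TOP) tract, through which the kinase complex mTORC1 and the RNA-binding protein LARP1 control their translation. Sensory neurons also carry ribosomal protein mRNAs into their axons, and ribosomes are made in quantity by growing and dividing cells. Their coding sequences have been copied back into the genome many times as processed pseudogenes, which makes short reads from them hard to place.

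The tissue labels were checked against marker genes. The 9 DRG sensory neuron markers were all measured (at least 1 FPKM in either library, a unit that divides fragments by transcript length and by the library's mapped fragments) in DRG, while 4 of the 9, among them Isl1, Avil and Scn10a, were under 1 FPKM in both cord libraries. The other 5 (Nefh, Tac1, Prph, Pou4f1 and Calca) were measured in cord, led by Nefh at 193 FPKM ipsilaterally and 165 FPKM contralaterally. Of the 7 spinal neuron markers, Gad1, Gad2, Slc32a1, Lmx1b and Pax2 were under 1 FPKM in both DRG libraries. Rbfox3 (46.5 FPKM ipsilaterally and 74.7 FPKM contralaterally) and Slc17a6 (95.6 FPKM ipsilaterally and 85.7 FPKM contralaterally) were measured there. The summed FPKM over all features was 442298 in the ipsilateral and 431795 in the contralateral DRG, and 442196 in the ipsilateral and 425636 in the contralateral cord. Differences are given as log2 of (ipsilateral FPKM + 1) over (contralateral FPKM + 1), and their median over all measured features was 0.05 for DRG and 0.02 for the cord.

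Of the 81 genes, 74 were measured in DRG and 75 in dorsal cord. Rpl4, whose long loop lines the tunnel through which the new protein leaves the ribosome, had the highest level in all 4 libraries. It stood at 544 FPKM in the ipsilateral and 473 FPKM in the contralateral DRG, and at 638 FPKM in the ipsilateral and 572 FPKM in the contralateral cord. Rps9, a small-subunit protein near the entry of the mRNA, came next in the contralateral libraries, at 325 FPKM in the ipsilateral and 290.4 FPKM in the contralateral DRG. In cord Rps9 had 424 FPKM ipsilaterally and 408 FPKM contralaterally. The measured genes together held 1.80% of all FPKM in the ipsilateral and 1.57% in the contralateral DRG, and 2.56% in the ipsilateral and 2.08% in the contralateral cord. Because FPKM is scaled to gene length, these shares are of length-scaled levels and not of reads.

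**Figure D1:**
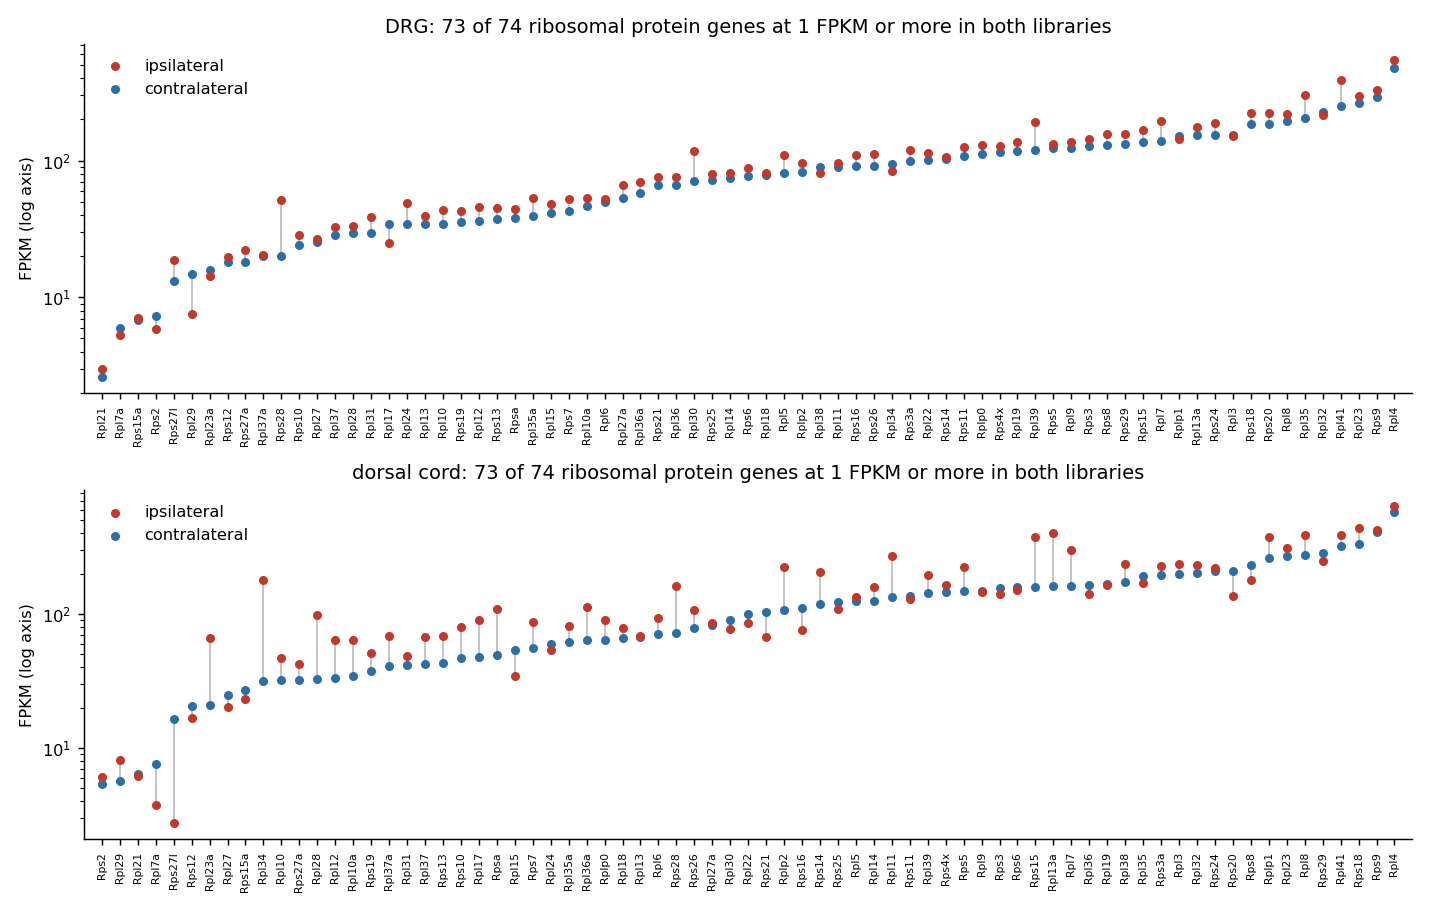
FPKM on a log axis for 73 of the 74 genes at 1 FPKM or more in both libraries of a tissue, ordered by the contralateral level, with ipsilateral values in red and contralateral values in blue. In DRG most pairs sit close together with the ipsilateral point slightly higher, and in dorsal cord the pairs spread wider, with Rpl34, Rpl23a and Rpl28 far higher ipsilaterally and Rps27l far lower.

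Several genes that every cell uses were listed at or near 0, and in each of these cases a row under another symbol carried the same coordinates and most of the level. Besides Rpl3l, Rpl10l and Rpl39l, which are paralogs of restricted expression, genes under 1 FPKM in both libraries included Rpl26 and Rps23 in both tissues and Rps27 in DRG. Rpl26 was listed at 0 in all 4 libraries, while the row Gm15772 at the same locus stood at 284 FPKM in the ipsilateral and 236 FPKM in the contralateral DRG. In cord Gm15772 stood at 575 FPKM ipsilaterally and 295 FPKM contralaterally. Rps23 had at most 0.777 FPKM in any library, and Gm15450 at its locus had 144 FPKM in the ipsilateral and 113 FPKM in the contralateral DRG. In all, 6 of the 81 genes, among them Rpl26, Rpl30, Rpl34, Rps23 and Rps27, shared a locus with such a row. A value listed at 0 can be a failed estimate, and for these genes the level of the gene and that of its copy cannot be told apart.

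In GENCODE M21 (build GRCm38) these copies lie on other chromosomes than the genes, so the authors' annotation and this one place them differently. The coding sequences differ at 2 of 354 positions between Rpl34 and Rpl34-ps1, at 2 of 438 between Rpl26 and Gm15772 and at 1 of 348 between Rpl30 and Gm12191. Rps27 and Gm9846 are identical over 255 bases, and Rps23 and Gm15450 over the 425 aligned bases. Rpl34 is shown because the largest called difference of the cord depends on it. Positions 121 to 330 of its coding sequence (GRCm38, coding span chr3:130726875-130729293, minus strand, spliced) and of Rpl34-ps1 (GRCm38, chr6:71124610-71124963, plus strand) follow, with the differing bases in capitals.
Rpl34: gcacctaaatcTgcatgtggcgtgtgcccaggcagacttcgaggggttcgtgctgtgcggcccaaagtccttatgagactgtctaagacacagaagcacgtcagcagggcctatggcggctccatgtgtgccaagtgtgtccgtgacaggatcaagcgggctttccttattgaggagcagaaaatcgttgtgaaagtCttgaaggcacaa
Rpl34-ps1: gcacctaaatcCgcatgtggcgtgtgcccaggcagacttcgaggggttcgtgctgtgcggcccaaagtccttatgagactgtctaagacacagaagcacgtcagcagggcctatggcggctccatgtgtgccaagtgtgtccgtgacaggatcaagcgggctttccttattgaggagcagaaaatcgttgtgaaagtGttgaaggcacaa
Counted from 1 at the start of the coding sequence, with the base of Rpl34 first, the differences are T132C and C318G. The longest stretch that both share without a difference is 185 bases.

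In the authors' files both rows carry the locus chr3:130429749-130433247 (mm9), and the level moves between them from library to library. Rpl34-ps1 had 17.3 FPKM in the ipsilateral and 0.312 FPKM in the contralateral DRG, and 1.96 FPKM in the ipsilateral and 60.3 FPKM in the contralateral cord. The row of Rpl34 held 83.0% of the sum of both rows in the ipsilateral and 99.7% in the contralateral DRG, and 98.9% in the ipsilateral and 34.2% in the contralateral cord. The summed level was 183 FPKM in the ipsilateral and 91.7 FPKM in the contralateral cord, a fold of 1.99, against 5.75 for the row of Rpl34 alone. Rps27, a zinc-finger protein of the small subunit, had 80.2 FPKM in the ipsilateral and 0.00946 FPKM in the contralateral cord, and Gm9846 had 0.0591 FPKM ipsilaterally and 44.6 FPKM contralaterally. Their sum was 80.3 FPKM ipsilaterally and 44.6 FPKM contralaterally, a fold of 1.80, whereas the row of Rps27 alone had a log2 ratio of 6.33. The authors' deposited table did not call Rps27 (q = 0.906), and it called Rpl34-ps1 lower in cord (q = 0.00100). With the rows summed, Rpl26 reached a log2 ratio of 0.96 in cord and 0.27 in DRG.

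**Figure D2:**
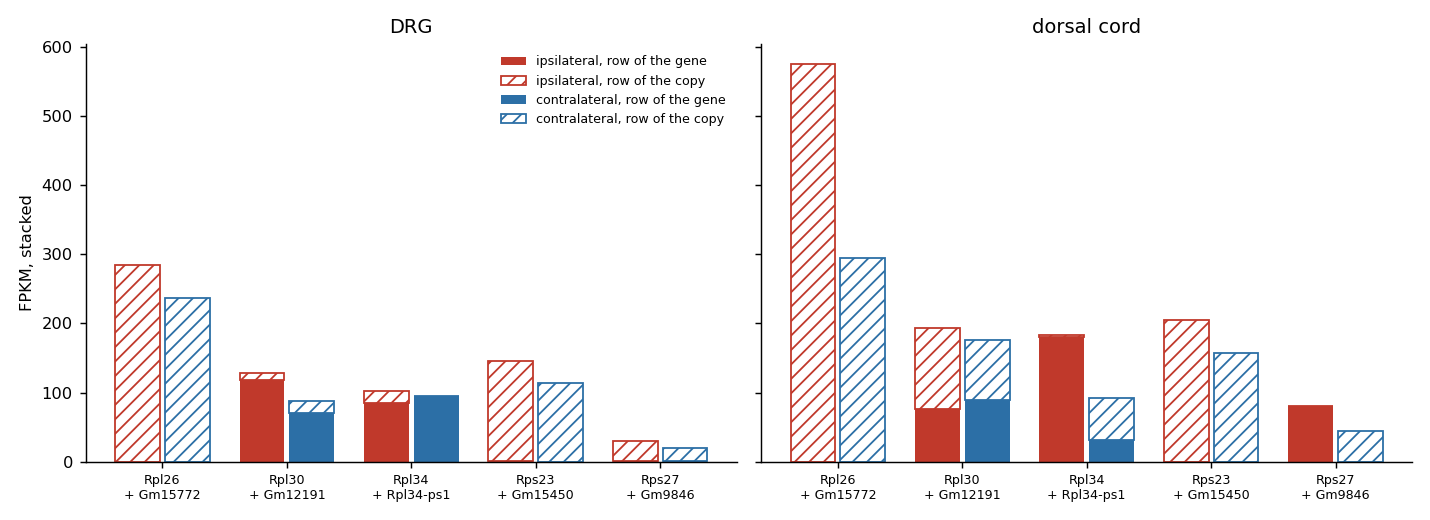
FPKM of 5 ribosomal protein genes (filled) and of the copy row with the same coordinates (hatched), stacked, for ipsilateral (red) and contralateral (blue) libraries of DRG and dorsal cord. For Rpl26 and Rps23 nearly all of the level is in the copy row in every library, and for Rpl34 and Rps27 in cord it is in the gene's row ipsilaterally and mostly in the copy's row contralaterally.

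More generally, levels were lower for genes with many near-identical copies. A copy was counted where another GENCODE gene shared at least 25% of the gene's 50-base words. The 14 genes with 0 copies had a median of 155 FPKM in the ipsilateral and 126 FPKM in the contralateral DRG, and the 17 genes with 5 or more had 43.6 FPKM ipsilaterally and 34.4 FPKM contralaterally. In cord the medians were 169 FPKM ipsilaterally and 152 FPKM contralaterally for 0 copies, and 67.9 FPKM ipsilaterally and 48.1 FPKM contralaterally for 5 or more. Across the measured genes, Spearman's rho between the number of copies and the contralateral level was -0.53 in DRG (n = 74) and -0.43 in cord (n = 75). These points share their libraries and the authors' read placement, and the cause was not tested. Among the genes of low level with many copies were Rpl21 (2.97 FPKM in the ipsilateral and 2.60 FPKM in the contralateral DRG), Rps2 and Rpl7a, and for such genes a low level and reads placed on a copy cannot be told apart. By rank the number of copies followed the log2 ratio far less, with a DRG rho of -0.16 and a cord rho of -0.05. The cord medians of the log2 ratio were however uneven, at 0.12 for 0 copies, 0.42 for the 44 genes with 1 to 4, and 0.02 for 5 or more. Of the genes at least 2-fold higher in cord, 8 had 1 to 4 copies, among them Rpl34 and Rps27. In DRG the medians were 0.21, 0.21 and 0.20 in the same order.

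In the ipsilateral DRG nearly all of these genes were a little higher than in the contralateral DRG, by about the same amount. Of the 74 measured, 64 had a log2 ratio above 0 and 10 below, against 56.1% above and 43.9% below 0 among all 13137 measured features. The median log2 ratio was 0.20, against 0.05 over all measured features and 0.00 over the 2828 other features with a mean of 30 FPKM or more. The middle of the distribution was narrow, with an interquartile range of 0.15 against 0.38 over those other highly expressed features. The standard error of a log2 fold that the authors' test statistics imply had a median of 0.28 over these genes. A difference of 0.20 in any single gene thus lay within that error. The small-subunit genes had a median of 0.24, with 29 of 30 above 0, and the large-subunit genes 0.19, with 35 of 44 above 0. In bulk tissue a different number of cells of a type and a different amount of RNA per cell cannot be told apart. In the same DRG libraries the 10 microglia and macrophage markers were all above 0, with a summed level of 191 FPKM ipsilaterally and 70.9 FPKM contralaterally. The 9 sensory neuron markers were all below 0, with summed levels of 2382 FPKM ipsilaterally and 3344 FPKM contralaterally. The 5 injury genes of sensory neurons (Atf3, Sprr1a, Gal, Npy and Gap43) were all above 0, with summed levels of 2701 FPKM ipsilaterally and 306 FPKM contralaterally. No gene of these lists was listed at 0 in DRG, and the part of these cell types in the ribosomal protein result was not tested.

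**Figure D3:**
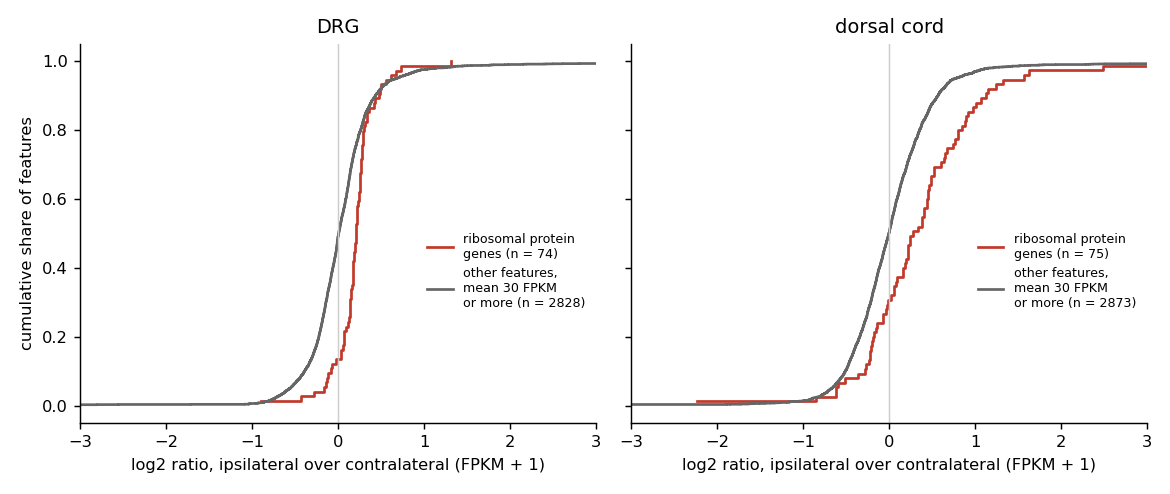
Cumulative share of features against the log2 ratio of ipsilateral over contralateral FPKM + 1, for the ribosomal protein genes (red) and for other features with a mean of 30 FPKM or more (grey). The DRG curve of the ribosomal protein genes is steep around its median of 0.20, and the cord curve, from which Rps27 lies beyond the axis, is wider, with a median of 0.27.

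In DRG 1 gene was at least 2-fold higher ipsilaterally and 0 were 2-fold lower, against 3.04% and 0.784% of all measured features. That gene was Rps28, a small-subunit protein beside the channel through which the mRNA leaves, with 51.5 FPKM ipsilaterally and 20.1 FPKM contralaterally. Its log2 ratio was 1.31, and the authors' deposited table gave q = 0.0565. Its plain fold was 2.56, with a 95% interval of 1.35 to 4.83 that follows from the authors' test statistic and holds no replicate spread. At 1.5-fold, 4 genes were higher and 1 was lower, against 8.56% and 4.96% of all measured features. These shares are under those of all features, and the DRG difference was small and common to most of the genes. The authors' deposited table called 0 of the 77 tested genes significant in DRG, against 4.64% of tested features called higher and 1.90% called lower. At the authors' unadjusted p of up to 0.05 it held 6 genes higher and 1 lower, against 10.6% and 6.17% of tested features.

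After Rps28, the highest DRG ratios belonged to 4 large-subunit genes. Rpl30, which in yeast represses the splicing of its own transcript, had 118 FPKM ipsilaterally and 70.4 FPKM contralaterally (log2 ratio 0.73), or 0.55 with the copy row at its locus added. Rpl39, a short protein in the wall of the exit tunnel, had 191 FPKM ipsilaterally and 120 FPKM contralaterally (0.66). Rpl41, the shortest ribosomal protein, which sits between the subunits, had 387 FPKM ipsilaterally and 252 FPKM contralaterally (0.62). Rpl35, at the mouth of the tunnel, had 302 FPKM ipsilaterally and 205 FPKM contralaterally (0.55). As deposited, Rpl30, Rpl39 and Rpl41 passed 1.5-fold on the log2(FPKM + 1) scale and Rpl35 lay just under it. Rescaling to equal medians also put Rpl41 under it, at 0.57. The 95% intervals of all 4 folds began above 1, the lowest bound being 1.02 for Rpl35.

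At the other end, Rpl29, a large-subunit protein also known for binding heparin, had 7.56 FPKM ipsilaterally and 14.9 FPKM contralaterally (log2 ratio -0.89). Its fold of 0.507 had a 95% interval of 0.287 to 0.895. Its level was low beside the group's DRG medians of 81.5 FPKM ipsilaterally and 75.4 FPKM contralaterally. Rpl17, a protein of the exit tunnel, had 25.1 FPKM ipsilaterally and 34.2 FPKM contralaterally (-0.43). Rps2, near the mRNA entry, had 5.87 FPKM ipsilaterally and 7.34 FPKM contralaterally (-0.28). The 95% intervals of Rpl17 and Rps2 included a fold of 1. Rpl34 (84.5 FPKM ipsilaterally and 94.8 FPKM contralaterally) and Rpl7a (5.30 FPKM ipsilaterally and 5.99 FPKM contralaterally) completed the 5 lowest, with log2 ratios of -0.16 for Rpl34, which becomes 0.10 with its copy row added, and -0.15 for Rpl7a. Among the more highly expressed genes outside both ends were Rpl23, which binds the p53 regulator Mdm2 (298 FPKM ipsilaterally and 265 FPKM contralaterally, 0.17), and Rpl32 (214 FPKM ipsilaterally and 228 FPKM contralaterally, -0.09).

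In the dorsal cord the genes differed more widely among themselves. Of the 75 measured, 52 had a log2 ratio above 0 and 23 below, against 51.6% above and 48.4% below 0 among the 13351 measured features. The median log2 ratio was 0.27, against 0.02 over all measured features, and the interquartile range was 0.78, against 0.55 over the 2873 other features with a mean of 30 FPKM or more. At 2-fold, 10 genes were higher ipsilaterally and 1 was lower, against 4.46% and 1.64% of all measured features. The 10 include the rows of Rpl34 and Rps27, whose folds with the copy row added were under 2, at 1.99 for Rpl34 and 1.80 for Rps27. At 1.5-fold, 23 were higher and 5 lower, against 12.7% and 8.32%. The large-subunit genes had a median of 0.36, with 33 of 44 above 0, and the small-subunit genes 0.19, with 19 of 31 above 0. The authors' deposited table called 12 genes significantly higher and 1 significantly lower, against 4.52% and 1.55% of tested features. At an unadjusted p of up to 0.05 it held 23 higher and 3 lower, against 12.6% and 8.33%. Its test compares 1 library with 1 library, so these calls describe the libraries and not the injury.

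The called large-subunit genes were led by Rpl34, with 181 FPKM ipsilaterally and 31.4 FPKM contralaterally (log2 ratio 2.49), which becomes 0.99 with the copy row added. Rpl23a, the tunnel-exit protein near which the signal recognition particle binds, had 66.6 FPKM ipsilaterally and 20.99 FPKM contralaterally (1.62). Rpl28 had 98.1 FPKM ipsilaterally and 32.5 FPKM contralaterally (1.56). After Rpl34 these had the largest folds among the called genes. They were 3.18 for Rpl23a with a 95% interval of 1.83 to 5.50, and 3.02 for Rpl28 with an interval of 1.80 to 5.05. Rpl13a, which in human myeloid cells also silences inflammatory transcripts off the ribosome, had 405 FPKM ipsilaterally and 161 FPKM contralaterally (1.32). Its authors' deposited q of 2.42e-05 was the lowest after that of Rpl34 (4.60e-08). Rpl11, which with Rpl5 binds the 5S ribosomal RNA and restrains Mdm2, had 269 FPKM ipsilaterally and 133 FPKM contralaterally (1.01). Rpl5 itself had 133 FPKM ipsilaterally and 125 FPKM contralaterally (0.09) and was not called. Rpl17 had 89.9 FPKM ipsilaterally and 48.1 FPKM contralaterally (0.89), and Rpl7 had 301 FPKM ipsilaterally and 162 FPKM contralaterally (0.89).

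The 3 genes of the lateral stalk, which recruits elongation factors, were all above 0 in cord. Rplp2 was called higher, at 223 FPKM ipsilaterally and 106 FPKM contralaterally (log2 ratio 1.07). Its partner Rplp1 had 377 FPKM ipsilaterally and 261 FPKM contralaterally (0.53), and the stalk base Rplp0 had 89.5 FPKM ipsilaterally and 63.8 FPKM contralaterally (0.48). Neither was called, and the interval of the Rplp0 fold included 1. In DRG the log2 ratios were 0.23 for Rplp2, -0.07 for Rplp1 and 0.22 for Rplp0.

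Of the small subunit, Rps15, at the decoding site, had 375 FPKM ipsilaterally and 158 FPKM contralaterally (log2 ratio 1.24). Rpsa, also known as the laminin receptor, had 109 FPKM ipsilaterally and 49.3 FPKM contralaterally (1.12). Both were called higher in the authors' deposited table, with q values of 0.000273 for Rps15 and 0.000619 for Rpsa. Rps14, at 206 FPKM ipsilaterally and 118 FPKM contralaterally (0.80), was called as well and is named after its values were seen. Rps28 had 161 FPKM ipsilaterally and 72.2 FPKM contralaterally (1.15), with q = 0.0561, and was not called.

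The lower end of the cord was led by Rps27l, a p53-inducible paralog of Rps27, with 2.73 FPKM ipsilaterally and 16.5 FPKM contralaterally (log2 ratio -2.23, authors' deposited q = 0.0285). It was the sole gene called lower. Its coding sequence is 76.1% identical to that of Rps27 with at most 11 identical bases in a row, unlike that of Gm9846. Rpl7a had 3.76 FPKM ipsilaterally and 7.58 FPKM contralaterally (-0.85). Rpl15 had 34.3 FPKM ipsilaterally and 53.4 FPKM contralaterally (-0.62), and Rps20 had 137 FPKM ipsilaterally and 211 FPKM contralaterally (-0.62). Rps21 had 67.7 FPKM ipsilaterally and 103 FPKM contralaterally (-0.60). None of these 4 was called, and the counting intervals of Rpl7a and Rps21 included a fold of 1. The 5 genes of highest contralateral level in cord were Rpl4 with a log2 ratio of 0.16, Rps9 with 0.06, Rpl41 with 0.27, Rps18 with 0.40 and Rps29 with -0.21. Rps6, the substrate of the S6 kinases, had 151 FPKM ipsilaterally and 158 FPKM contralaterally in cord (-0.07), and 88.2 FPKM ipsilaterally and 76.8 FPKM contralaterally in DRG (0.20).

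Of the marker lists, the microglia and macrophage genes had the highest median log2 ratio in cord, 2.27. All 10 were above 0, at 783 FPKM summed ipsilaterally and 156 FPKM contralaterally, and 0 were listed at 0. Their part in the cord values of the ribosomal protein genes was not tested. GC content also moved with the cord ratios. Over the 2767 other features with a mean of 30 FPKM or more and a known transcript, Spearman's rho between the log2 ratio and transcript GC content was 0.36 in cord, and over 2737 such features it was -0.05 in DRG. In cord the median log2 ratio of these features was -0.21 in the lowest of 5 GC classes and 0.28 in the highest. For the ribosomal protein genes rho was 0.17 in cord (n = 75) and -0.21 in DRG (n = 74). These are descriptions across genes of the same libraries. Subtracting the median of features of like GC content left the members' median at 0.26 in cord and 0.16 in DRG. By the same centring Rpl28, with 60.4% GC, had a log2 ratio of 1.33 in cord, Rps15, with 57.8% GC, had 1.03, and Rps27l, with 43.1% GC, had -2.07.

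**Figure D4:**
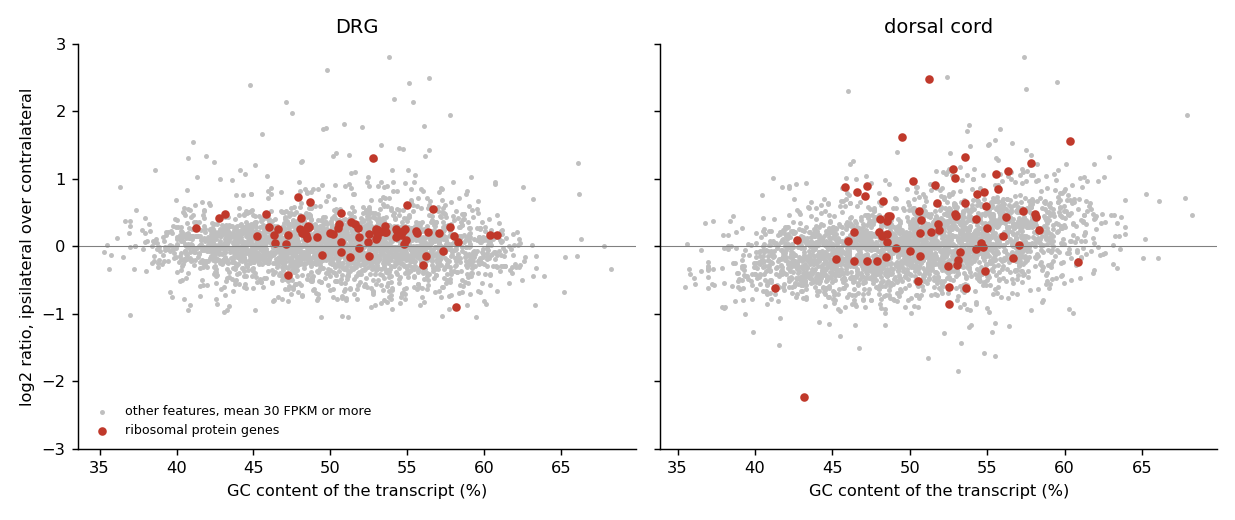
Log2 ratio of ipsilateral over contralateral FPKM + 1 against transcript GC content in percent, for other features with a mean of 30 FPKM or more (grey) and the ribosomal protein genes (red), in DRG and dorsal cord. In cord the grey cloud slopes upward with GC content (rho 0.36) and in DRG it does not (rho -0.05), while the red points in cord scatter over the whole height, with Rps27 above the axis.

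The DRG and cord ratios of the same gene were not aligned. Of the 74 genes measured in both tissues, 42 (56.8%) were above 0 in both, against 29.4% of the 12229 features measured in both, and 1, Rpl7a, was below 0 in both. Another 22 were above 0 in DRG and below in cord, and 9 were below 0 in DRG and above in cord. Across the 74 genes Spearman's rho between the log2 ratios of the tissues was -0.05 and Pearson's r -0.11, as a description. Rps28 was the sole gene at least 1.5-fold higher in both, against 1.74% of features, and 0 genes were 1.5-fold lower in both, against 0.540%. No gene was 1.5-fold higher in one tissue and 1.5-fold lower in the other. The tissues were normalised separately, and the difference between them was not tested. Rpl39 lay at 0.66 in DRG and 0.46 in cord, with 197 FPKM in the ipsilateral and 143 FPKM in the contralateral cord.

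**Figure D5:**
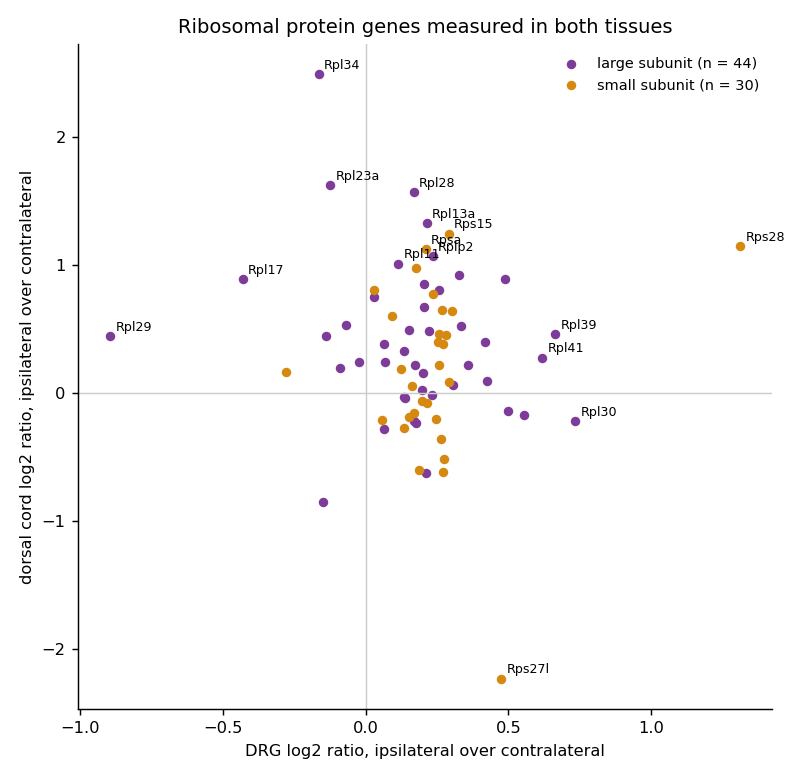
Log2 ratio in dorsal cord against log2 ratio in DRG for the 74 genes measured in both tissues, ipsilateral over contralateral, with large-subunit genes in purple and small-subunit genes in orange. Most points lie in a narrow band to the right of 0 in DRG and spread from -0.85 to 2.49 in cord apart from Rps27l at -2.23, and Rps28 stands alone at the upper right.

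Paralogs of restricted expression were compared with their widely expressed partners. Rpl3l, the striated-muscle form of Rpl3, had 0.175 FPKM in the ipsilateral DRG and was listed at 0 in the contralateral DRG. Rpl3, near the peptidyl transferase centre, had 152 FPKM in the ipsilateral and 154 FPKM in the contralateral DRG. In cord Rpl3l had 0.131 FPKM ipsilaterally and 0.631 FPKM contralaterally. Rpl10l, a testis form of Rpl10, had 0.0595 FPKM in the ipsilateral DRG and was listed at 0 in the other 3 libraries. Rpl10, which joins the large subunit late in its maturation, had 43.6 FPKM in the ipsilateral and 34.4 FPKM in the contralateral DRG, and 46.7 FPKM in the ipsilateral and 32.2 FPKM in the contralateral cord. Rpl39l, a germ-cell form of Rpl39, had 0.324 FPKM in the ipsilateral and 0.888 FPKM in the contralateral DRG and was listed at 0 in cord. Rps27l was thus the sole measured paralog of these, and in DRG it had 18.7 FPKM ipsilaterally and 13.2 FPKM contralaterally (log2 ratio 0.48). Rps4x, the X-linked small-subunit gene, had 127 FPKM in the ipsilateral and 116 FPKM in the contralateral DRG, and 166 FPKM in the ipsilateral and 146 FPKM in the contralateral cord.

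Promoter sequences were available from RefSeq (GRCm38.p6) for 61 of the 81 genes, with 73 annotated starts. A cytosine at the annotated start followed by at least 4 pyrimidines, read on the gene's strand, was found at 17.8% of these starts and at 2.47% of the 32778 starts of other genes. A cytosine followed by 7 pyrimidines within 20 bases of the start was found in 41.1% and 12.5%. Motifs were searched on either strand of the whole promoter sequence, which is longer than the 20 bases on each side of the start. CCGGAAG, the core recognised by ETS factors, was in 37.0% of these promoter sequences against 8.80% of the others of the same length. AAGATGG, the core recognised by YY1, was in 15.1% against 6.32%, CACGTG in 10.96% against 7.14% and TATAAA in 8.22% against 13.6%. CCGGAAG and AAGATGG can overlap by their shared letters. The windows below span 20 bases on each side of the annotated start. They are shown for some of the genes at the ends of the measured ratios and for Rps6. The longest pyrimidine run is in capitals, and the upstream start is taken where Rps27l has more than 1.
Rps28 (chr17:33824543-33824582, minus strand): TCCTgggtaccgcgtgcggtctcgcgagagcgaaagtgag
Rpl41 (chr10:128549149-128549188, minus strand): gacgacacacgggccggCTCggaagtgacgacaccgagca
Rpl35 (chr2:39005112-39005151, minus strand): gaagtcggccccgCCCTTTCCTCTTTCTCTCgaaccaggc
Rpl13a (chr7:45128726-45128765, minus strand): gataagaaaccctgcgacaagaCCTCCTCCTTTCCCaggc
Rpl28 (chr7:4792945-4792984, plus strand): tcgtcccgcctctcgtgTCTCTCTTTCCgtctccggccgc
Rps27l (chr9:66946066-66946105, plus strand): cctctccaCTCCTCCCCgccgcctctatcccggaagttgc
Rps6 (chr4:86857348-86857387, minus strand): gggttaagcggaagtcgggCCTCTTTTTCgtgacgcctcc
The longest run was 18 bases in Rpl35, 14 in Rpl13a, 11 in Rpl28, 10 in Rps6, 9 in Rps27l, 4 in Rps28 and 3 in Rpl41. Rps28 and Rpl41, which were among the genes highest ipsilaterally in DRG, had the shortest runs of those shown, and Rpl35, also among them, had the longest. Windows not shown included a downstream start of Rpl34, with a run of 20 bases, and Rpl39, with 8. Such matches describe the annotated sequence, are not sites of binding, and no relation between run length and ratio was tested.

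Other parts of the translation machinery were read in the same way. The 18 further elongation and TOP mRNA genes had a median log2 ratio of 0.24 in DRG, with 15 above 0, and 0.33 in cord, with 12 above 0. Eef1b2, an exchange factor for the elongation factor eEF1A, had 149 FPKM ipsilaterally and 86.7 FPKM contralaterally in DRG and was called higher in the authors' deposited table. Eef1a1, that elongation factor, had 757 FPKM ipsilaterally and 541 FPKM contralaterally in DRG (0.48) and was not called. In cord the authors' deposited table called Tpt1, a TOP mRNA encoding the translationally controlled tumour protein, lower, at 74.6 FPKM ipsilaterally and 272 FPKM contralaterally (-1.85). The members of this list in cord therefore lay on both sides of 0.

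Over the 6 ribosomal proteins that carry other symbols the median was 0.07 in DRG and 0.52 in cord. Rpl36al had 168 FPKM ipsilaterally and 84.6 FPKM contralaterally in cord (log2 ratio 0.98), and the authors' deposited table called it higher. Rps27a, a fusion of ubiquitin with a small-subunit protein and one of the 81, had 42.5 FPKM ipsilaterally and 32.4 FPKM contralaterally in cord (0.38). Fau, a fusion of a ubiquitin-like protein with a small-subunit protein, had 193 FPKM ipsilaterally and 122 FPKM contralaterally in cord (0.65). Neither Rps27a nor Fau was called.

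Ribosome biogenesis factors had a median of 0.15 in DRG, with 29 of 37 above 0, and 0.14 in cord, with 22 of 37 above 0, and the authors' deposited table called 0 of them in either tissue. Among all tested features it called 4.64% higher and 1.90% lower in DRG, and 4.52% higher and 1.55% lower in cord. Sbds, which helps release a maturation factor from the large subunit, had 81.8 FPKM ipsilaterally and 57.9 FPKM contralaterally in DRG (0.49). The 13 measured RNA polymerase I genes lay at a median of 0.08 in DRG, with 9 above 0. In cord their median was 0.27, but they were split, with 7 above 0 and 6 below. Taf1d was called lower in cord in the authors' deposited table, at 9.69 FPKM ipsilaterally and 17.2 FPKM contralaterally. The mTORC1 and TOP control genes stayed near the median of all features, at 0.01 in DRG over 18 genes and 0.05 in cord over 16. Among them Sesn2, a stress-induced inhibitor of mTORC1, had 2.96 FPKM ipsilaterally and 1.15 FPKM contralaterally in DRG and was called higher in the authors' deposited table. The 10 genes of the S6 kinase family, taken by symbol, had a median of -0.05 in DRG, with 3 above 0 and 7 below. In cord it was 0.06, with 5 above 0 and 5 below. Among these genes Rps6ka1 was called higher in both tissues in the authors' deposited tables. It had 8.31 FPKM ipsilaterally and 3.67 FPKM contralaterally in DRG, and 11.5 FPKM ipsilaterally and 3.90 FPKM contralaterally in cord. Rps6kb1, a kinase of Rps6, had 12.8 FPKM ipsilaterally and 17.7 FPKM contralaterally in cord (-0.44) and was not called.

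Nuclear genes for mitochondrial proteins gave a further comparison. The 39 small respiratory chain subunits had a median of -0.03 in DRG, with 14 above 0. In cord their median was -0.20, with 3 called higher and 5 lower in the authors' deposited table, against 4.52% and 1.55% of tested features. Atp5k, an ATP synthase subunit, had 1638 FPKM ipsilaterally and 581 FPKM contralaterally, and Ndufa7, a complex I subunit, had 32.6 FPKM ipsilaterally and 80.1 FPKM contralaterally. At 1.5-fold 6 of these subunits were higher and 10 lower in cord, against 12.7% and 8.32% of measured features. The 76 mitochondrial ribosomal protein genes had a median of -0.06 in DRG, with 29 above 0, and 0.06 in cord. The authors' deposited table called 0 of them in DRG, against 4.64% higher and 1.90% lower among tested features, and 5 higher in cord, against 4.52% of tested features.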

How the data were processed

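RNA was sequenced in 4 libraries, 1 each of ipsilateral and contralateral DRG and dorsal cord. Total RNA (QIAGEN RNeasy) was made into libraries with an Epicentre ScriptSeq kit, per the labels' protocols. The submitters' processing notes name TopHat 1.4.0, Cuffdiff 1.3.0 and build mm9. No annotation, filter or strand setting is named in the sources used here. The authors deposited 1 table per tissue, with levels in FPKM and with their p-values, q-values, test statistic and status, per the file headers. Whether samples were pooled and how many reads lie behind each value are not given there, so depth is unknown.

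From the deposited FPKM, log2 ratios with a pseudocount of 1 FPKM were computed within each table with Python 3.11.15 and pandas 2.3.3, and features at 1 FPKM or more in either library were kept. The pseudocount understates differences of low genes. With 1 library per group no test was made. The 95% interval of a fold uses the standard error that follows from the authors' test statistic and covers no spread between replicates. In cord that error of the log2 fold was 0.25 for Rps6 and 0.25 for the more highly expressed Rps9. It therefore did not fall with level as counting error alone would. The calculations were tested on simulated data. Loci were printed counted from 1.

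GENCODE M21 transcripts (GRCm38) gave GC content for 96.7% of the measured features in DRG and 96.1% in cord, all measured members included, and RefSeq gave promoters. Members, related lists and markers were chosen with earlier results of these data known. Named genes are, per tissue, the 5 highest and 5 lowest ratios, the 5 highest contralateral levels, up to 12 genes called by the authors, genes listed at 0 in 1 library, the stalk genes and Rpsa, paralogs with their partners, and up to 4 genes per related list. Other genes, among them Rpl5, Rpl21, Rps6, Rps14, Rps27a and Eef1a1, were named after their values were seen. Alternatives were other pseudocounts, filters, scalings, centrings and authors' thresholds, leaving out paralogs, and, added after seeing the data, centring by GC content and coding length, summing rows at a shared locus, and leaving out genes with such rows or of low level. Some genes are not reported here. The number of unused per-sample columns was 0.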

Additional observations from a re-analysis of the deposited data

Results flagged for a closer look

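Some genes lay on opposite sides of 0 in the tissues with log2 ratios at least 1 apart. Rpl34 had -0.16 in DRG and 2.49 in cord, or 0.10 and 0.99 with its copy row added. Rpl23a had -0.12 in DRG and 1.62 in cord. Rpl17 had -0.43 in DRG and 0.89 in cord, and Rpl29 had -0.89 in DRG and 0.44 in cord. Rps27l went the other way, with 0.48 in DRG and -2.23 in cord. The difference between tissues was not tested, since each group is 1 library.

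Some rows outside the 81 genes held signal that was higher ipsilaterally. The authors' deposited tables did not call Rps19-ps3 in cord (q = 0.399) or Rpl34-ps1 in DRG (q = 0.151). Gm15772 was not called either, but this may mean that it was not tested, so no result is read from it. In the ipsilateral cord Gm15772 had 575 FPKM, against 295 FPKM in the contralateral cord. The pseudogene symbol Rps19-ps3 had 40.2 FPKM in the ipsilateral and 24.3 FPKM in the contralateral cord. Rpl34-ps1 had 17.3 FPKM in the ipsilateral and 0.312 FPKM in the contralateral DRG, but 1.96 FPKM in the ipsilateral and 60.3 FPKM in the contralateral cord. Rps19-ps3 does not share the locus of Rpl34, and the part of misplaced reads in its level was not tested.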

How the results depend on the processing

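The median log2 ratio of the measured genes stayed between 0.14 and 0.21 in DRG and between 0.22 and 0.36 in cord under all alternatives, and no alternative turned the sign of the median. Single genes near 0 did change sign, such as Rpl34 in DRG, from -0.16 to 0.10 with the rows at its locus summed, Rpl37a and Rps14 in DRG, below 0 under median rescaling, and Rpl13 and Rps9 in cord, below 0 with centring by GC content, to -0.14 and -0.07. In DRG, centring by coding length, chosen after seeing the data, left 2 genes at least 1.5-fold higher in place of 4. At the authors' unadjusted p of up to 0.05, 6 genes were higher and 1 lower in DRG, and 23 were higher and 3 lower in cord. At q of up to 0.01, 7 were higher and 0 lower in cord. The share of all tested features at that q was not computed, so this count has no background beside it. Without the listed paralogs the cord had 0 genes 2-fold lower and 0 called lower, because Rps27l was the gene counted. The other 199 recomputed medians and counts stayed within the limits set, a shift of 0.1 for a median and 1.5 times for a count. Centring by a RefSeq protein length was not run. No paired analysis was possible because each group has 1 library. Leaving out a library was not possible for the same reason. Depth limits the low genes, and reads shared with copies limit Rpl26, Rpl30, Rpl34, Rps23 and Rps27.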
